A study of Mus musculus with 15 samples.

Results

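The comparison set macrophages of sympathetic ganglia (SAM ganglia, 3 libraries) against macrophages of the spleen (SpM, 3 libraries), which are 6 of the 15 libraries in the series, across all genes of the table from which reads of DNA contamination had been removed. Both populations were sorted as cells positive for F4/80, the surface protein encoded by Adgre1 that marks mouse macrophages, and for CD45, the leukocyte protein encoded by Ptprc. All animals were C57BL/6J mice, with no allele, transgene or treatment named in the labels and no age or sex given. Every library title carries the tag ND, which is not interpreted here. RNA was taken from the cells directly after isolation. Tissues of 10 mice were dissected, and whether a group's libraries stem from different animals or from 1 pool is left unsaid in the labels. Ganglia were digested with collagenase for 10 minutes and then with trypsin for 30 minutes, and spleens with collagenase for 30 minutes, with shaking at 37 °C, so digestion and tissue cannot be told apart in this comparison. The other libraries came from macrophages of sympathetic nerve fibers (2), subcutaneous fat (2), visceral fat (2) and brain (microglia, 3), sorted by the same pair of markers; their levels are given as mean ± SD over those libraries.

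Macrophages take on programs that depend on the organ in which they live. Those of the red pulp of the spleen engulf aged red blood cells, break down their heme and export the iron, under the transcription factor SPIC and with the adhesion molecule VCAM1 on their surface. Macrophages attached to sympathetic neurons express the fractalkine receptor CX3CR1, as microglia do, and the series title links them to import and breakdown of norepinephrine, the transmitter of those neurons.

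The ganglia libraries held 4.09 to 9.31 M counts and the spleen libraries 5.93 to 11.4 M (M, the SI prefix mega). Transcripts that collect ribosomal RNA reads (Rn45s, Lars2 and Mir6236) took 49.6% to 65.7% of the counts in ganglia and 54.0% to 60.6% in spleen, which left 1.81 to 3.19 M and 2.34 to 4.82 M for other genes. Counts over olfactory receptor genes, not known to be used by these cells and read here as DNA background, were 49.8, 145 and 857 in ganglia libraries 1, 2 and 3, against 60.6, 311 and 493 in spleen libraries 1, 2 and 3 (1125 genes, per M raw counts). Library 3 was thus highest in both groups, and counts that the text leads with were also taken without those 2 libraries. Correlations of log levels were 0.801 to 0.910 between ganglia libraries, 0.918 to 0.959 between spleen libraries and 0.714 to 0.825 between the groups. The p-values measure spread between libraries, which can be technical.

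Levels are given as counts per M (CPM) after TMM scaling, for libraries 1, 2 and 3 of a group in that order, or as mean ± SD (n = 3 in each group). Fold changes are log2 values, ganglia over spleen, ± SE of the edgeR fit, and adjusted p-values come from edgeR's quasi-likelihood test with Benjamini-Hochberg adjustment over 15289 tested genes. Calls of higher or lower in ganglia needed both an adjusted p under 0.05 and a log2 fold change beyond 1 in either direction. Some zeros of the corrected table may be failed estimates: of genes with at least 100 raw gene-body counts, 6.14% to 24.0% were listed at 0 in a ganglia library and 4.35% to 19.4% in a spleen library. Genes at 0 throughout 1 group therefore get no fold, and their raw gene-body counts are printed. A library allows a level of up to 0.249 to 0.693 CPM (3 counts) for a gene with no count, which covers counting error only. Counting intervals of folds pool the counts of a group's libraries and leave out the spread between libraries.

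Of 4 markers used to check the labels, 3 separated the groups. Cx3cr1, the fractalkine receptor gene (chromosome 9, 120048680 to 120068300 on mm10), had 2129.7, 1468 and 1810.3 CPM in ganglia, against 14.1, 8.75 and 15.1 CPM in spleen (log2 fold change 7.16 ± 0.58, adjusted p = 4.46e-07). Spic (chromosome 10, 88675270 to 88683023) had 11.8, 5.58 and 5.02 CPM in ganglia, against 802, 643 and 547 CPM in spleen (log2 fold change -6.49 ± 0.66, adjusted p = 4.48e-06). Vcam1 (chromosome 3, 116110020 to 116129690) had 38.1, 45.8 and 46.1 CPM in ganglia, against 3973, 4610.1 and 2569.7 CPM in spleen (log2 fold change -6.42 ± 0.58, adjusted p = 1.33e-06). No ganglia library overlapped a spleen library for these 3 genes.

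Mrc1, the mannose receptor gene, did not pass the test. It had 1667, 1071 and 783 CPM in ganglia, against 1135, 855 and 695 CPM in spleen, and the groups overlapped (log2 fold change 0.39 ± 0.48, adjusted p = 0.798; 95% interval of the log2 fold change -0.55 to 1.34). Of the sort markers, Adgre1 had 305, 456 and 336 CPM in ganglia, against 553, 609 and 452 CPM in spleen and was not called (log2 fold change -0.56 ± 0.25, adjusted p = 0.215). Ptprc was lower in ganglia, with 347, 216 and 261 CPM in ganglia, against 867, 757 and 685 CPM in spleen (log2 fold change -1.49 ± 0.33, adjusted p = 0.0061), a call lost without the 2 libraries richest in DNA background (log2 fold change -1.53, adjusted p = 0.0523). Both sort markers were thus read in every library. In these bulk samples, fewer cells of a type and less RNA per cell cannot be told apart.

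Of 15289 tested genes among 24084 in the table, 911 were higher in ganglia (5.96%) and 550 were lower (3.6%), or 9.56% in either direction. The median log2 fold change was 0.10 over all tested genes, 3.34 over the higher genes and -2.62 over the lower ones. In 891 of the 911 higher genes and 547 of the 550 lower genes the 3 ganglia libraries did not overlap the 3 spleen libraries; among all tested genes such separation was seen for 14.1% in the higher and 15.2% in the lower direction. The fitted log2 fold change exceeded 5 in either direction for 226 higher and 106 lower genes. Of the called genes, 44 had 0 counts after rounding in every spleen library and 29 in every ganglia library.

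Higher genes made up 62.4% of the calls. The share was 54.5% (713 higher, 596 lower) without scaling beyond the library total, which shifted the median of all genes to -0.09, and 48.7% (664 higher, 700 lower) in the deposited RPKM table, whose median was -0.19. The direction of single genes depended little on the table: raw gene-body counts gave the same sign for 1443 of the 1461 called genes (98.8%), although only 140 higher and 114 lower genes were called on them. Where that table moved a list's count by more than 1.5 times, its count is given beside the list. Without the library 3 of each group, 648 genes were higher and 322 lower.

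**Figure D1:**
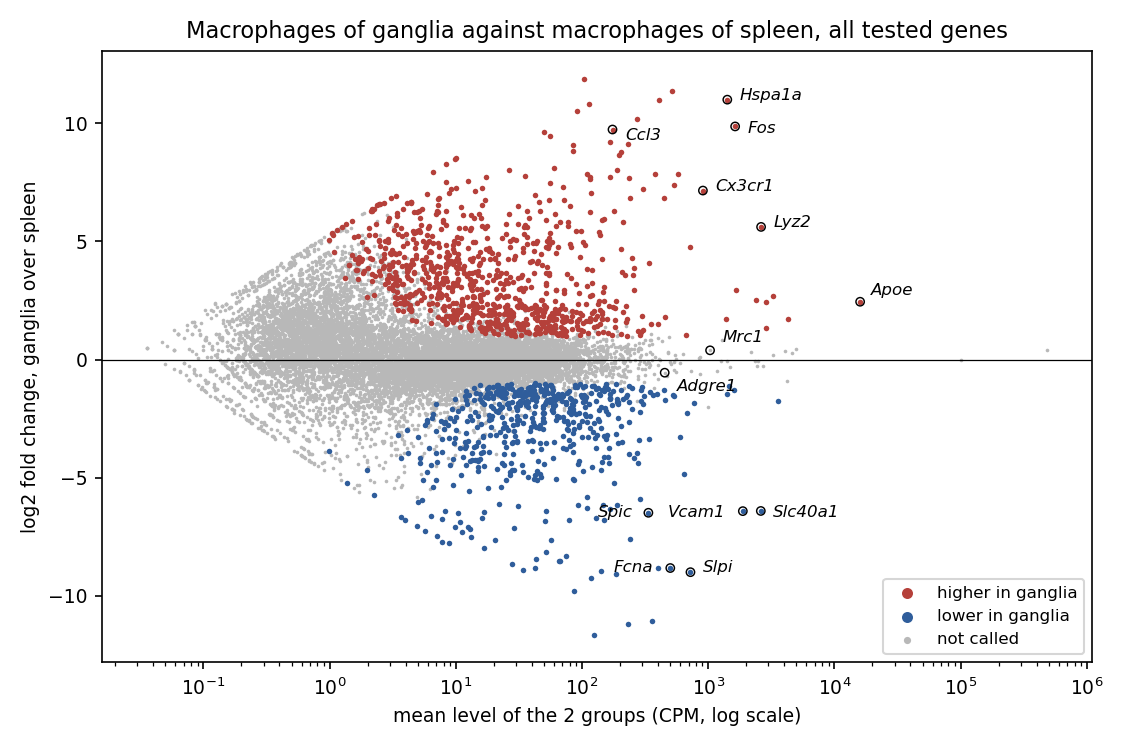
Log2 fold change of every tested gene (ganglia over spleen, vertical axis) against its mean level in both groups (CPM, log scale), without genes at 0 throughout 1 group; red points are higher in ganglia, blue points lower, grey points not called. Hspa1a, Fos, Cx3cr1 and Lyz2 stand far above the line at high mean levels, Vcam1, Slc40a1, Spic, Fcna and Slpi far below it, and Mrc1 and Adgre1 lie near it.

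Genes of red pulp identity had the highest share of lower members among 44 gene lists. Of 14 tested members 12 were lower and none higher by edgeR, DESeq2 or limma voom or at an unadjusted p under 0.05, with a median log2 fold change of -6.42 beside 0.10 over all genes, and the count was 12 without any 1 library and without the library 3 of each group. Summed over the list, levels were 329.9 to 387 CPM in ganglia and 10938 to 16019 CPM in spleen. Slc40a1, which encodes ferroportin, the only known cellular iron exporter (chromosome 1, 45908070 to 45925594), had 59.3, 68.5 and 53.6 CPM in ganglia, against 5867, 6274 and 3340.2 CPM in spleen (log2 fold change -6.41 ± 0.33, adjusted p = 8.09e-09). Fcna, the secreted pattern-recognition lectin ficolin A (chromosome 2, 25624667 to 25627974), had 2.77, 2.52 and 1.2 CPM in ganglia, against 919, 958 and 1119.5 CPM in spleen (log2 fold change -8.83 ± 0.72, adjusted p = 4.80e-07). Every spleen library stood far above every ganglia library for both genes.

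Cd5l, an apoptosis inhibitor that macrophages secrete, had 1.15, 0 and 0 CPM in ganglia, against 477, 784 and 887 CPM in spleen (log2 fold change -11.09 ± 1.10, adjusted p = 3.73e-06). Itgad, the integrin alpha D chain typical of red pulp macrophages, had 0, 0.133 and 0.401 CPM in ganglia, against 516, 422 and 460.4 CPM in spleen. Its level rested on 3 counts in ganglia and was 2650-fold (95% counting interval 907 to 12900) higher in spleen (adjusted p = 2.26e-07). The complement gene C6 had 0, 0.266 and 1.81 CPM in ganglia, against 303, 429 and 387 CPM in spleen (log2 fold change -9.09 ± 1.01, adjusted p = 1.20e-05). No ganglia library held more than 9 counts of any of the 3 genes. Siglec1, the sialoadhesin gene, was 1 of the 2 members not called, with 52.2, 125 and 93.1 CPM in ganglia, against 19.2, 91.2 and 28.3 CPM in spleen (log2 fold change 0.96 ± 0.62, adjusted p = 0.475).

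The 300-base window around the start of Fcna is shown because the gene had one of the widest gaps of the list and its window held repeated copies of a short purine motif (RefSeq, GRCm38.p6, chr2:25627925-25628224, minus strand). Capitals mark GAGGAA, the core recognised by the macrophage factor PU.1, searched on both strands.
Fcna: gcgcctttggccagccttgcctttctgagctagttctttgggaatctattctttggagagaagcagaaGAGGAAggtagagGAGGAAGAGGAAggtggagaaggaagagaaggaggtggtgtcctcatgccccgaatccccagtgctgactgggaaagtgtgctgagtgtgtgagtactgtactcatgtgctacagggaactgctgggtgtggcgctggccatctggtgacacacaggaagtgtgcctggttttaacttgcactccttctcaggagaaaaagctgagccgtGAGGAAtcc
The window held 4 matches, of which 2 abut, and none overlapped a match to another motif searched. Of the 8 red pulp list members with a window 3 held at least 1 match, beside 27.6% of the 11669 windows matched to tested genes. Among all these windows 10 (0.0857%) held 4 or more. A match is a description of the letters, and binding was not measured.

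Heme and iron genes shared this direction in part. Of 22 tested members 10 were lower in ganglia and 1 higher (median -0.77), 7 were lower without the library 3 of each group, and 3 were lower and none higher on raw gene-body counts. Hmox1, the heme oxygenase that opens the heme ring, had 34.9, 33.6 and 28.3 CPM in ganglia, against 549, 505 and 473 CPM in spleen (log2 fold change -3.98 ± 0.38, adjusted p = 2.42e-06). Slc48a1, which carries heme out of the phagolysosome, had 43.9, 69.9 and 65.8 CPM in ganglia, against 447, 698 and 703 CPM in spleen (log2 fold change -3.36 ± 0.43, adjusted p = 5.49e-05). Blvra, the biliverdin reductase downstream of heme oxygenase, had 23.1, 32.8 and 36.1 CPM in ganglia, against 135, 133 and 152 CPM in spleen (log2 fold change -2.19 ± 0.32, adjusted p = 2.03e-04). The export, ring opening and transport steps were therefore lower together, in every ganglia library.

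Hebp1, which encodes a heme-binding protein, averaged 2.27 ± 1.88 CPM in ganglia and 72 ± 20.5 CPM in spleen (log2 fold change -4.96 ± 0.61, adjusted p = 3.63e-05). The 1 higher member was Cp, ceruloplasmin, the copper ferroxidase that oxidises exported iron, with 125, 102 and 81.4 CPM in ganglia, against 4.91, 4.92 and 1.52 CPM in spleen (log2 fold change 4.73 ± 0.67, adjusted p = 1.48e-04). Its groups did not overlap. On raw gene-body counts the log2 fold change of Cp was 1.94, adjusted p = 0.509.

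Macrophages of the marginal zone, at the border of the white pulp, have their own markers, and these split. Marco, a scavenger receptor, had 0, 0.266 and 0 CPM in ganglia, against 49.6, 8.75 and 42 CPM in spleen, and was 289-fold (95% counting interval 79.9 to 2390) higher in spleen (adjusted p = 0.00141). Nr1h3, the LXR alpha nuclear receptor needed for marginal zone macrophages, had 1.39, 1.2 and 5.82 CPM in ganglia, against 182, 226 and 247 CPM in spleen (log2 fold change -6.30 ± 0.63, adjusted p = 1.10e-05). Cd209a had 124, 77.2 and 72.4 CPM in ganglia, against 0.832, 0.766 and 1.07 CPM in spleen (log2 fold change 6.67 ± 0.52, adjusted p = 3.65e-07) and was higher in ganglia. Cd209b, whose product marks marginal zone macrophages, had 5.31, 11.6 and 3.01 CPM in ganglia, against 0, 0 and 0.152 CPM in spleen, 206-fold (95% counting interval 36.3 to 8190) higher in ganglia on 1 spleen count (adjusted p = 0.00113). Reads may be split uncertainly among the near-identical Cd209 genes, and 2 of 6 tested members were called in each direction (median -0.06), or 1 in each on raw counts.

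Several genes outside these lists showed the widest gaps in the same direction. Slpi, a secreted inhibitor of leukocyte proteases, had 0.923, 3.59 and 3.61 CPM in ganglia, against 1287, 1576 and 1467 CPM in spleen (log2 fold change -9.01 ± 0.87, adjusted p = 2.88e-06). Ccr3, the eotaxin receptor gene, had 1.39, 2.26 and 1.4 CPM in ganglia, against 845, 912 and 653 CPM in spleen (log2 fold change -8.84 ± 0.74, adjusted p = 6.45e-07). Tmem26, a membrane protein gene, had 0, 1.33 and 0 CPM in ganglia, against 304, 306 and 229 CPM in spleen (log2 fold change -8.94 ± 1.35, adjusted p = 2.68e-04). These transcripts were abundant in each spleen library and at no more than a few CPM in each ganglia library.

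Adamdec1, a secreted metalloprotease-like gene, had 0, 0.133 and 0 CPM in ganglia, against 297, 258 and 185 CPM in spleen, 4340-fold (95% counting interval 779 to 172000) higher in spleen on 1 ganglia count (adjusted p = 3.80e-07). St6galnac2, a sialyltransferase gene, had 0, 0 and 0.401 CPM in ganglia, against 63.9, 73.8 and 66.2 CPM in spleen, 570-fold (95% counting interval 158 to 4710) higher in spleen on 2 ganglia counts (adjusted p = 5.64e-06). Stab2, the scavenger receptor stabilin-2, had 0, 0 and 1.2 CPM in ganglia, against 186, 231 and 292 CPM in spleen (log2 fold change -9.26 ± 1.13, adjusted p = 4.81e-05). All 3 kept the groups apart.

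Slc45a3, a sugar transporter family gene, was listed at 0 in all ganglia libraries, against 330.1, 454 and 333 CPM in spleen; its raw gene-body counts were 1, 16 and 148 in ganglia, against 4699, 4897 and 2747 in spleen (raw log2 fold change -6.68, adjusted p = 0.0187). Cela1, an elastase gene, was listed at 0 in all ganglia libraries, against 37.3, 43.4 and 45.8 CPM in spleen; its raw counts were 4, 13 and 101 in ganglia, against 1265, 974 and 853 in spleen (-4.98, adjusted p = 0.0116). Mrap, the melanocortin receptor accessory gene, was listed at 0 in all ganglia libraries, against 23.9, 42.9 and 35.8 CPM in spleen; its raw counts were 3, 14 and 108 in ganglia, against 393, 602 and 356 in spleen (-3.72, adjusted p = 0.0406). In these 3 genes the raw counts pointed the same way and passed on their own. Vstm4 and Cmbl were also listed at 0 in ganglia, with raw counts of 20, 96 and 797 in ganglia, against 2188, 1877 and 1675 in spleen for Vstm4 and 0, 38 and 215 in ganglia, against 1740, 1132 and 1051 in spleen for Cmbl. Their raw folds did not pass (adjusted p = 0.126 for Vstm4 and 0.0696 for Cmbl).

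**Figure D2:**
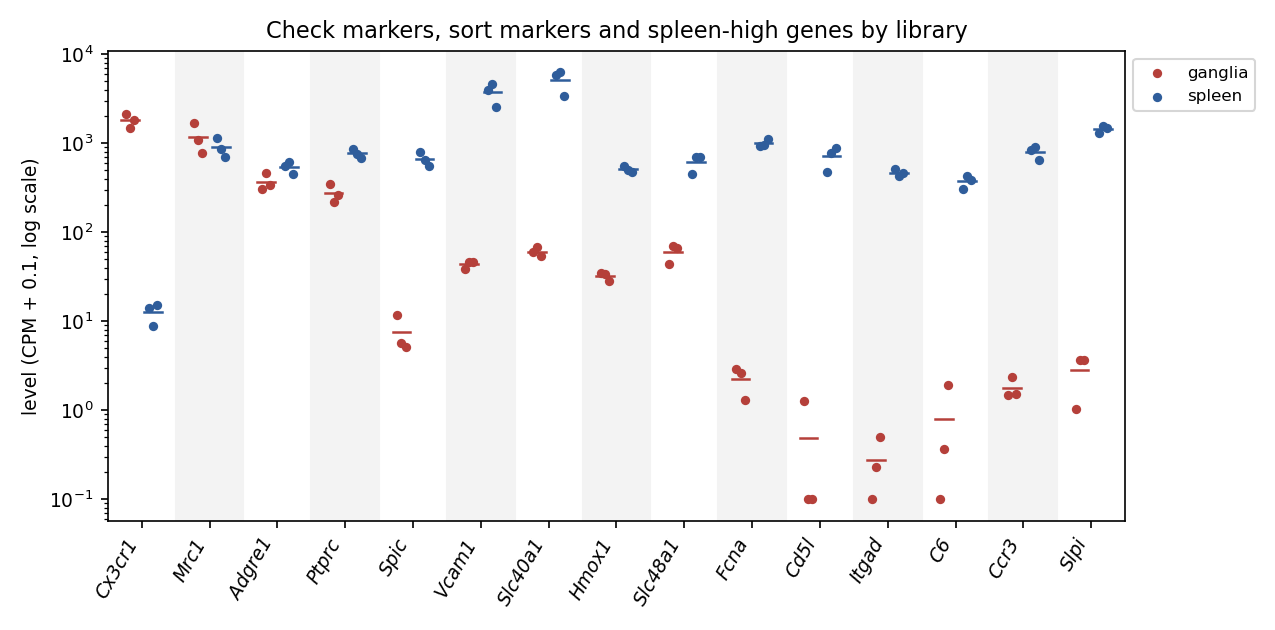
Levels (CPM + 0.1, log scale) of the check markers, the sort markers and genes with low levels in ganglia, 1 point per library and a line at the group mean, ganglia in red left of spleen in blue. Only Mrc1 and Adgre1 overlap between the groups; Cx3cr1 stands higher in ganglia and the other 12 genes stand lower.

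Most genes on a list of resident and perivascular macrophages, which holds scavenger receptors and secreted factors, were higher in ganglia. Of 20 tested members 12 were higher and 1 was lower, namely Stab2 (median 4.64). The count of higher members was 12 or 13 without any 1 library, and Stab2 was not called on raw counts. F13a1, the coagulation factor XIII A chain, had 586, 423 and 368 CPM in ganglia, against 1.33, 0.109 and 0.913 CPM in spleen (log2 fold change 9.12 ± 0.66, adjusted p = 1.66e-07). Folr2, the folate receptor beta gene, had 86.3, 189 and 145 CPM in ganglia, against 0.166, 0.985 and 1.67 CPM in spleen (log2 fold change 7.32 ± 0.76, adjusted p = 6.05e-06). Stab1, stabilin-1, had 382, 600.5 and 421 CPM in ganglia, against 2.0, 0.547 and 4.41 CPM in spleen (log2 fold change 7.70 ± 0.58, adjusted p = 2.61e-07). Stabilin-1 and stabilin-2 transcripts thus lay in opposite directions.

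Mgl2, a galactose-binding C-type lectin gene (chromosome 11, 70130357 to 70137542), had 232, 233 and 152 CPM in ganglia, against 0.0832, 0 and 0 CPM in spleen. It rested on 1 spleen count and was 5790-fold (95% counting interval 1040 to 229000) higher in ganglia (adjusted p = 1.07e-05). Cd36, the fatty acid and lipoprotein scavenger receptor, had 229, 199 and 95.9 CPM in ganglia, against 3.91, 3.5 and 4.41 CPM in spleen (log2 fold change 5.47 ± 0.41, adjusted p = 2.59e-07). Pf4, platelet factor 4, had 251, 194 and 212 CPM in ganglia, against 1.91, 0.547 and 0 CPM in spleen (log2 fold change 7.86 ± 0.69, adjusted p = 1.01e-06). Mrc1 and Cd163 belong to the same list and were not called. Vsig4, a complement receptor gene of resident macrophages and a member of the complement list named outside the rule, was listed at 0 in all ganglia libraries, against 4.74, 4.05 and 2.28 CPM in spleen; its raw counts were 89, 74 and 188 in ganglia, against 1633, 605 and 685 in spleen (raw log2 fold change -2.49, adjusted p = 0.165).

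Genes of the microglial and Cx3cr1-linked signature had the highest share of higher members among the 44 lists. Of 20 tested members 16 were higher and none lower by edgeR (1 lower by DESeq2, by limma voom and at an unadjusted p under 0.05; 7 higher on raw gene-body counts), with a median of 5.19, or 4.69 with the 2 members listed at 0 in spleen set to 3 counts a library. Trem2, the lipid-sensing receptor of microglia (chromosome 17, 48346401 to 48352276), had 147, 285 and 253 CPM in ganglia, against 0.166, 0.109 and 0 CPM in spleen, and was 2220-fold (95% counting interval 760 to 10800) higher in ganglia on 3 spleen counts (adjusted p = 2.05e-08). Fcrls, an Fc receptor-like gene of mouse microglia, had 612, 934 and 891 CPM in ganglia, against 0.166, 0.109 and 1.07 CPM in spleen (log2 fold change 10.99 ± 0.81, adjusted p = 2.13e-07). Olfml3 had 285, 410.4 and 484 CPM in ganglia, against 1.25, 1.31 and 0.152 CPM in spleen (log2 fold change 8.64 ± 0.67, adjusted p = 3.23e-07), and Siglech had 318, 169 and 209 CPM in ganglia, against 2.08, 1.31 and 1.83 CPM in spleen (log2 fold change 7.04 ± 0.45, adjusted p = 4.69e-08). All 4 genes were near 0 in each spleen library.

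Mean levels of several of these genes in microglia were higher still, a difference not tested here. Olfml3 averaged 1923 ± 416 CPM in microglia, and Trem2 averaged 953 ± 181 CPM there. The purinergic receptor gene P2ry12, a homeostatic marker of microglia, had 219, 196 and 202 CPM in ganglia, against 80.2, 92.2 and 42.5 CPM in spleen (log2 fold change 1.52 ± 0.29, adjusted p = 0.00181) and averaged 3932 ± 696 CPM in microglia. Sparc, a secreted matrix protein gene, had 97.7, 92.6 and 85.5 CPM in ganglia, against 1.25, 1.42 and 0.761 CPM in spleen (log2 fold change 6.28 ± 0.36, adjusted p = 1.81e-08). Summed over the list, levels were 13878 to 16060.5 CPM in ganglia and 4895 to 6416 CPM in spleen, and 52685 to 59787 CPM in microglia.

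Some calls with wide gaps rested on the corrected table. Afap1l1, an actin-binding gene, had 39.9, 36.8 and 33.7 CPM in ganglia and was listed at 0 in all spleen libraries, with raw gene-body counts of 367, 611 and 860 in ganglia, against 25, 176 and 329 in spleen (raw log2 fold change 2.71, adjusted p = 0.0985). Reps2, an endocytosis adaptor gene, had 35.1, 36.5 and 23.9 CPM in ganglia and was listed at 0 in all spleen libraries, with raw counts of 498, 898 and 1578 in ganglia, against 84, 307 and 610 in spleen (2.35, adjusted p = 0.069). Neither passed on raw counts.

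Other genes with the widest gaps in this direction encode secreted and membrane proteins. Pmepa1, an inhibitor of TGF-beta signalling, had 558, 499.8 and 563 CPM in ganglia, against 0.915, 0.219 and 0 CPM in spleen (log2 fold change 10.20 ± 0.72, adjusted p = 1.35e-07). Serpinf1, pigment epithelium-derived factor, had 109.9, 131 and 96.1 CPM in ganglia, against 0.333, 0 and 0 CPM in spleen (log2 fold change 9.48 ± 0.60, adjusted p = 4.69e-08). Every spleen library was below 1 CPM for these 2 genes. Apoe, the apolipoprotein of lipid export, was the most abundant of the listed transcripts in ganglia, with 16928, 32570 and 31536 CPM in ganglia, against 4384, 5678 and 4788 CPM in spleen (log2 fold change 2.45 ± 0.33, adjusted p = 9.37e-05).

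Transcription factors of the macrophage lineage divided between the groups. Of 30 tested members 9 were higher and 5 lower in ganglia (median 0.63), but none was higher and 3 were lower on raw gene-body counts. Mef2c, an enhancer factor of microglia, had 241, 173 and 164 CPM in ganglia, against 4.91, 3.5 and 4.72 CPM in spleen (log2 fold change 5.46 ± 0.45, adjusted p = 5.05e-07). Cebpa, a myeloid differentiation factor, had 101, 140.0 and 135 CPM in ganglia, against 15.4, 18.1 and 19.5 CPM in spleen (log2 fold change 2.83 ± 0.28, adjusted p = 3.78e-06), and Runx3 had 56.6, 35.6 and 56.2 CPM in ganglia, against 1.33, 2.41 and 4.11 CPM in spleen (log2 fold change 4.27 ± 0.61, adjusted p = 1.77e-04). On the other side, Spic and Nr1h3 were lower, as given above. The groups did not overlap for any of these factors.

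The general macrophage genes moved in both directions, with 3 higher and 7 lower of 18 tested members (median -0.37), 4 lower without the library 3 of each group and none lower on raw counts. Lyz2, lysozyme, had 4004, 5048 and 6373 CPM in ganglia, against 94.1, 116 and 104 CPM in spleen (log2 fold change 5.62 ± 0.32, adjusted p = 1.81e-08). Itgam, the CD11b chain, which red pulp macrophages carry at low level, had 170.1, 107 and 95.7 CPM in ganglia, against 6.49, 3.06 and 3.96 CPM in spleen (log2 fold change 4.77 ± 0.41, adjusted p = 7.26e-07). Cd68 was lower, with 98.8, 98.2 and 91.7 CPM in ganglia, against 238, 181 and 229 CPM in spleen (log2 fold change -1.17 ± 0.23, adjusted p = 0.00274), a call lost without the library 3 of each group (adjusted p = 0.054). Lysozyme and CD11b transcripts thus stood higher in each ganglia library while the CD68 transcript stood lower.

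Immediate-early genes, which cells transcribe within minutes of a stimulus without new protein synthesis, were mostly higher in ganglia. Of 22 tested members 16 were higher, and none was lower by edgeR, DESeq2 or limma voom or at an unadjusted p under 0.05 (median 3.82). The count of higher members was 16 or 17 without any 1 library, 16 without the library 3 of each group and 9 on raw gene-body counts, and summed levels were 8497 to 10660.1 CPM in ganglia and 202 to 263 CPM in spleen. Fos (chromosome 12, 85473901 to 85477270) had 3881, 3071 and 2842 CPM in ganglia, against 2.25, 7.77 and 0.152 CPM in spleen (log2 fold change 9.87 ± 0.78, adjusted p = 3.78e-07). Jun, its AP-1 partner, had 1417, 1037 and 764 CPM in ganglia, against 6.99, 6.02 and 6.24 CPM in spleen (log2 fold change 7.38 ± 0.46, adjusted p = 4.23e-08). Atf3, a stress-induced factor, had 1209.7, 942 and 1292 CPM in ganglia, against 5.65, 5.58 and 3.2 CPM in spleen (log2 fold change 7.88 ± 0.35, adjusted p = 1.93e-09). All 3 were abundant in each ganglia library and stayed below 10 CPM in each spleen library.

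Egr1 had 431, 261 and 365 CPM in ganglia, against 4.57, 4.49 and 4.26 CPM in spleen (log2 fold change 6.30 ± 0.43, adjusted p = 8.26e-08), and Fosb had 196, 158 and 158 CPM in ganglia, against 0.333, 0.656 and 0 CPM in spleen (log2 fold change 8.84 ± 0.53, adjusted p = 2.84e-08). Dusp1, the phosphatase that switches off MAP kinases, had 682, 746 and 835 CPM in ganglia, against 2.91, 4.16 and 2.59 CPM in spleen (log2 fold change 7.86 ± 0.50, adjusted p = 4.87e-08). Of the 9 tested Kruppel-like factor genes 3 were higher, namely Klf2 (5.40 ± 0.41), Klf4 (4.85 ± 0.36) and Klf6 (2.95 ± 0.42), all with no overlap. Klf13 had 109, 105 and 77.4 CPM in ganglia, against 118, 72.5 and 59.5 CPM in spleen and was not called (log2 fold change 0.22 ± 0.43, adjusted p = 0.898).

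Levels of these genes are set beside the digestion of the 6 sources. Subcutaneous fat, visceral fat and brain were digested with collagenase for 30 minutes, as spleen was. Fos averaged 1759 ± 385 CPM in subcutaneous fat, 1354 ± 217 CPM in visceral fat and 14.5 ± 1.25 CPM in microglia, and 6253 ± 551 CPM in fibers, which had hyaluronidase for 30 minutes and collagenase for 15 minutes. Atf3 averaged 972 ± 281 CPM in subcutaneous fat, 535 ± 36.6 in visceral fat, 14.8 ± 2.06 in microglia and 2927 ± 275 in fibers. Sources with the spleen's digestion had both high and low levels. Ganglia and fibers, each digested with a second enzyme, had the highest mean levels of Fos and Atf3. The part of digestion in the difference between ganglia and spleen was not tested.

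Most heat-shock chaperone genes were also higher. Of 14 tested members 8 were higher and 1 lower (median 1.70), 6 were higher without the library 3 of each group, and none was lower on raw counts. Hspa1a (chromosome 17, 34969359 to 34972156), the inducible HSP70, had 2854, 2859.8 and 2779.9 CPM in ganglia, against 0.748, 1.64 and 1.83 CPM in spleen (log2 fold change 11.01 ± 0.48, adjusted p = 1.93e-09). Its neighbour Hspa1b had 1191, 1039.5 and 864 CPM in ganglia, against 0.0832, 0.547 and 0.609 CPM in spleen (log2 fold change 11.36 ± 0.63, adjusted p = 1.81e-08). These 2 genes are near-identical copies, so the split of reads between them is uncertain, but both were near 0 in spleen. Dnajb1, the HSP40 co-chaperone, had 468, 591 and 367 CPM in ganglia, against 23.7, 33.1 and 14.6 CPM in spleen (log2 fold change 4.31 ± 0.34, adjusted p = 3.79e-07), and Hsph1, the HSP110 exchange factor, had 135, 96.3 and 98.3 CPM in ganglia, against 11.6, 18.4 and 13.1 CPM in spleen (log2 fold change 2.93 ± 0.38, adjusted p = 6.19e-05).

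Hspb1, a small heat-shock protein gene, had 12, 34.3 and 15.2 CPM in ganglia and was listed at 0 in all spleen libraries, with raw counts of 96, 379 and 126 in ganglia, against 1, 1 and 4 in spleen (raw log2 fold change 7.60, adjusted p = 0.00914). The 1 lower member was Hsp90aa1, the inducible HSP90, and its direction reversed with the table. It was listed at 0 in all ganglia libraries, against 27.1, 18.7 and 19 CPM in spleen, but its raw gene-body counts were 6033, 9307 and 3407 in ganglia, against 566, 409 and 306 in spleen (raw log2 fold change 4.92, adjusted p = 0.0515). Hsp90aa1 is 1 of 18 called genes whose sign differed on raw counts, 5 of them called higher and 13 called lower.

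Promoter windows of 2 of these genes are shown because the heat-shock element, the inverted GAA repeat bound by heat-shock factors, is known from this family. Capitals mark GAANNTTC, which reads the same on both strands and was added to the search after the levels were seen (RefSeq, GRCm38.p6; Hspa1a at chr17:34972107-34972406, minus strand, and Hspb1 at chr5:135887669-135887968, plus strand).
Hspa1a: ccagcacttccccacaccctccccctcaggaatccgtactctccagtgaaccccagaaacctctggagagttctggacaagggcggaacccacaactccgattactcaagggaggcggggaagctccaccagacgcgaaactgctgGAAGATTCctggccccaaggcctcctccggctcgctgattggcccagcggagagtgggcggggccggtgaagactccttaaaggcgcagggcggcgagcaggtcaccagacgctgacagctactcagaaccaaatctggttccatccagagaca
Hspb1: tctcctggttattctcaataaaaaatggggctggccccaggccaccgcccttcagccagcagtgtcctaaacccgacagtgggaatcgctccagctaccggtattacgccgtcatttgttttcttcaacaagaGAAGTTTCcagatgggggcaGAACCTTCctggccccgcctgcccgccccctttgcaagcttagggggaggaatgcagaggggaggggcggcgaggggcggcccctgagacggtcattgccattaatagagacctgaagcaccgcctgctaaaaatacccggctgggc
Hspa1a held 1 match and Hspb1 held 2. The window of Hspa1b differed from that of Hspa1a at 4 of 300 positions and held the same match. Of the 10 list members with a window 8 held the element, beside 6.54% of all 11669 windows. No match overlapped a match to another motif searched.

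**Figure D3:**
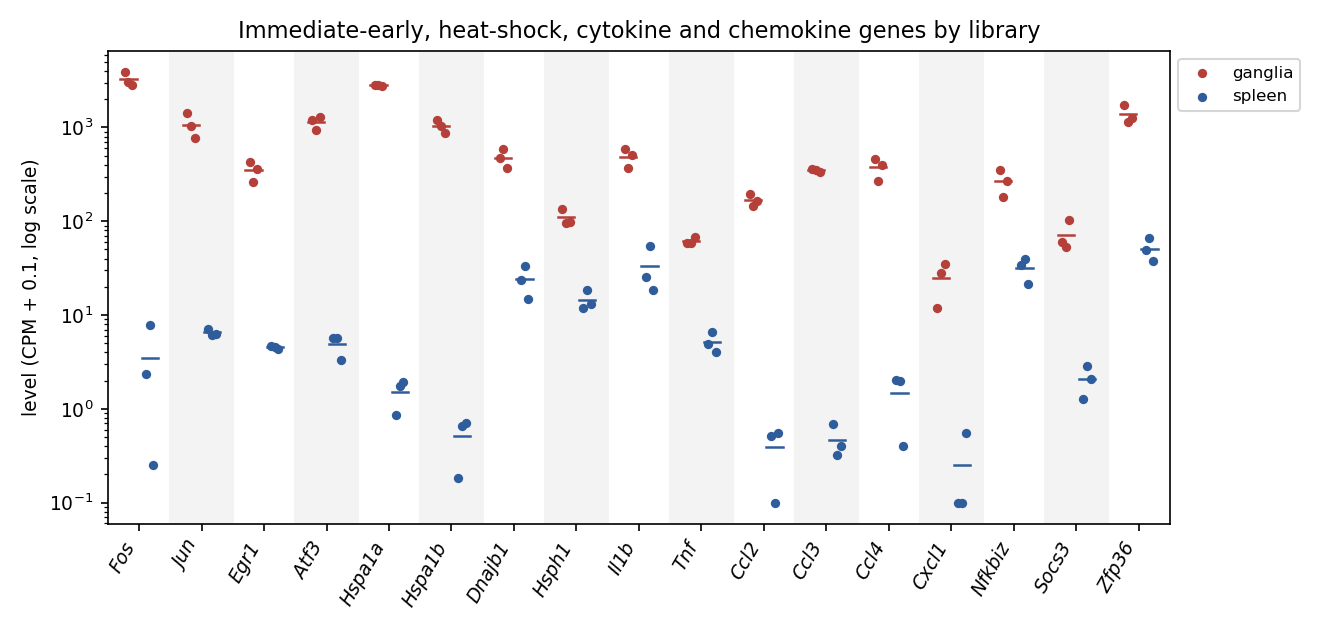
Levels (CPM + 0.1, log scale) of immediate-early, heat-shock, cytokine, chemokine and feedback genes, 1 point per library and a line at the group mean, ganglia in red left of spleen in blue. The groups do not overlap for any of the 17 genes; Fos and Hspa1a lie at the top in each ganglia library and below 10 CPM in each spleen library.

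Inflammatory cytokine genes split. Of 14 tested members 3 were higher and 2 lower (median 1.51), or 1 higher and none lower on raw counts. Il1b, interleukin-1 beta, had 589, 369 and 503 CPM in ganglia, against 25.6, 54.7 and 18.4 CPM in spleen (log2 fold change 3.88 ± 0.46, adjusted p = 2.46e-05). Tnf had 57.9, 58.3 and 68 CPM in ganglia, against 4.82, 6.56 and 3.96 CPM in spleen (log2 fold change 3.58 ± 0.48, adjusted p = 9.03e-05), and Osm, oncostatin M, had 91.4, 62.7 and 55.6 CPM in ganglia, against 0.832, 1.31 and 1.98 CPM in spleen (log2 fold change 5.70 ± 0.53, adjusted p = 2.05e-06). Il18, by contrast, had 24.9, 16.9 and 13.8 CPM in ganglia, against 193, 180.3 and 169.9 CPM in spleen (log2 fold change -3.29 ± 0.38, adjusted p = 1.60e-05), and Il16 was also lower (log2 fold change -1.64 ± 0.27, adjusted p = 5.29e-04). Tgfb1 was not called, with 44.6, 66.5 and 52.6 CPM in ganglia, against 79.9, 108 and 93.1 CPM in spleen (log2 fold change -0.78 ± 0.26, adjusted p = 0.0802).

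Most CC chemokine genes, which recruit monocytes and lymphocytes, were higher. Of 14 tested members 8 were higher and none lower by edgeR or DESeq2 (1 lower by limma voom), with a median of 6.92, or 5.98 with Ccl17, listed at 0 in spleen, set to 3 counts a library. The count was 8 or 9 without any 1 library, 8 without the library 3 of each group and 8 on raw gene-body counts. Ccl3 (chromosome 11, 83647843 to 83649378) had 358, 353 and 335 CPM in ganglia, against 0.582, 0.219 and 0.304 CPM in spleen (log2 fold change 9.74 ± 0.49, adjusted p = 4.79e-09). Ccl4 had 464, 269.9 and 399 CPM in ganglia, against 1.91, 1.86 and 0.304 CPM in spleen (log2 fold change 8.02 ± 0.47, adjusted p = 2.33e-08), and Ccl2, the ligand of CCR2, had 194, 145 and 165 CPM in ganglia, against 0.416, 0 and 0.456 CPM in spleen (log2 fold change 9.10 ± 0.85, adjusted p = 2.05e-06). Each of the 3 exceeded 100 CPM in each ganglia library and stayed below 2 CPM in each spleen library.

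Ccl12 had 195, 156 and 195 CPM in ganglia, against 0.166, 0.109 and 0 CPM in spleen, 1640-fold (95% counting interval 561 to 7970) higher in ganglia on 3 spleen counts (adjusted p = 2.26e-07). Ccl7 had 74.6, 119 and 105 CPM in ganglia, against 0.166, 0.109 and 0 CPM in spleen, 957-fold (95% counting interval 327 to 4650) higher in ganglia, also on 3 spleen counts (adjusted p = 9.58e-06). Ccl9 averaged 133 ± 53 CPM in ganglia and 2.25 ± 1.27 CPM in spleen (log2 fold change 5.82 ± 0.51, adjusted p = 9.67e-07). Of 11 tested CXC chemokine genes 3 were higher (median 3.49), which is 27.3% called beside 9.56% of all tested genes. Cxcl16, a membrane-bound chemokine, had 255, 257 and 340.2 CPM in ganglia, against 3.58, 8.1 and 2.43 CPM in spleen (log2 fold change 5.90 ± 0.47, adjusted p = 4.03e-07). Cxcl1, a neutrophil attractant, had 11.8, 27.9 and 35.1 CPM in ganglia, against 0, 0 and 0.456 CPM in spleen, 239-fold (95% counting interval 81.3 to 1160) higher in ganglia on 3 spleen counts (adjusted p = 4.16e-05). Cxcl10, an interferon-induced chemokine, had 39.7, 85.5 and 98.7 CPM in ganglia, against 21, 38 and 15.7 CPM in spleen and was not called (log2 fold change 1.58 ± 0.49, adjusted p = 0.055).

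The window around the start of Cxcl1 is shown because 4 of the 10 CXC chemokine genes with a window (Cxcl1, Cxcl2, Cxcl3 and Cxcl10) held GGAATTTCC, a site of the inflammatory factor NF-kB, beside 0.394% of all 11669 windows (RefSeq, GRCm38.p6, chr5:90890995-90891294, plus strand; capitals mark the site, searched on both strands).
Cxcl1: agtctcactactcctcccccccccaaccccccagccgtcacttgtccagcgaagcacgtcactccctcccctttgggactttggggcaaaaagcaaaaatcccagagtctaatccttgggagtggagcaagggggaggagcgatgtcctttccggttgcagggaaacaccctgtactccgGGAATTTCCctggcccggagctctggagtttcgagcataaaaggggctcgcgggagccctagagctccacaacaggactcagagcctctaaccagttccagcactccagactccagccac
Cxcl1 was the 1 of these 4 genes called higher, and its match overlapped no other motif searched.

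Most feedback inhibitors of inflammatory signalling were higher too. Of 16 tested members 9 were higher and none lower by edgeR (1 lower by limma voom and at an unadjusted p under 0.05; median 1.80), 8 were higher without the library 3 of each group, and 4 on raw counts. Zfp36, which destabilises cytokine messages, had 1737, 1141 and 1255 CPM in ganglia, against 48.8, 65.7 and 37.6 CPM in spleen (log2 fold change 4.76 ± 0.30, adjusted p = 4.63e-08). Socs3, an inhibitor of cytokine receptors, had 60.02, 53.4 and 102 CPM in ganglia, against 1.16, 2.73 and 1.98 CPM in spleen (log2 fold change 5.20 ± 0.44, adjusted p = 6.43e-07). Nfkbiz, an atypical inhibitor of NF-kB, had 356, 180.1 and 267 CPM in ganglia, against 33.8, 39.4 and 21.3 CPM in spleen (log2 fold change 3.08 ± 0.40, adjusted p = 6.07e-05), and Nfkbid had 67.4, 71.6 and 71.6 CPM in ganglia, against 6.99, 11.5 and 6.85 CPM in spleen (log2 fold change 3.05 ± 0.37, adjusted p = 2.73e-05). No library of 1 group overlapped the other for these genes.

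Of 20 tested interferon-stimulated genes 3 were higher and 1 lower (median 0.77), or 1 higher and none lower on raw counts. Over all tested genes the share called in either direction was 9.56%. Higher in ganglia with no overlap were 10 of the 20, beside 14.1% of all tested genes. Another 3 were lower with no overlap, beside 15.2% of all tested genes. The list had 1 higher member without spleen library 3, 0 without the library 3 of each group, and 0 lower members without ganglia library 1 or 2 or spleen library 1 or 2. Oasl2 had 91.2, 83.3 and 129 CPM in ganglia, against 4.32, 18.4 and 2.28 CPM in spleen (log2 fold change 3.59 ± 0.81, adjusted p = 0.00746; adjusted p = 0.0968 without the library 3 of each group).

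Receptors for chemoattractants differed beside their ligands. Of 15 tested members 8 were higher and 3 lower in ganglia (median 4.50), and the 8 higher held on raw counts and without any 1 library. C3ar1, the receptor of complement C3a, had 511, 501 and 403 CPM in ganglia, against 1.5, 4.59 and 6.54 CPM in spleen (log2 fold change 6.84 ± 0.51, adjusted p = 2.26e-07). C5ar1 had 199, 153 and 112 CPM in ganglia, against 7.15, 4.27 and 4.11 CPM in spleen (log2 fold change 4.88 ± 0.38, adjusted p = 3.65e-07). Ccr1, a receptor of CCL3, had 216, 133 and 130 CPM in ganglia, against 0.915, 1.09 and 3.5 CPM in spleen (log2 fold change 6.51 ± 0.54, adjusted p = 6.24e-07). Receptor and ligand transcripts were thus both higher in the ganglia libraries, while Ccr3 was lower.

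Complement genes split, with 3 higher and 5 lower of 17 tested members (median -0.53); 3 were lower without any 1 of the ganglia libraries or spleen library 1 or 2, and 2 without the library 3 of each group. On raw counts 1 was higher and 2 were lower. Cfp, properdin, which stabilises the alternative pathway convertase, had 53.8, 46.2 and 30.7 CPM in ganglia, against 1029.5, 1495 and 1192 CPM in spleen (log2 fold change -4.83 ± 0.53, adjusted p = 1.03e-05). C2 was lower (log2 fold change -2.90 ± 0.58, adjusted p = 0.00337), a call lost without the library 3 of each group (adjusted p = 0.0618). The membrane regulator Cd55 averaged 0.432 ± 0.218 CPM in ganglia and 18.7 ± 10.9 CPM in spleen (log2 fold change -5.33 ± 1.33, adjusted p = 0.018), and its call was lost without any 1 library other than spleen library 3 (adjusted p = 0.0611 to 0.127).

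Among Fc receptor genes, Fcgr2b, the inhibitory IgG receptor, had 227, 224 and 229 CPM in ganglia, against 2.83, 4.27 and 1.83 CPM in spleen (log2 fold change 6.23 ± 0.36, adjusted p = 1.81e-08). Fcgr4, an activating IgG receptor, had 19.6, 25.4 and 26.1 CPM in ganglia, against 158, 179 and 105 CPM in spleen (log2 fold change -2.63 ± 0.35, adjusted p = 6.80e-05) and was lower. Fcrl1, a B cell Fc receptor-like gene, had 0, 0.133 and 0 CPM in ganglia, against 9.9, 11.8 and 7.46 CPM in spleen, 168-fold (95% counting interval 29.8 to 6640) higher in spleen on 1 ganglia count (adjusted p = 6.78e-04). Fcgr3 had 377, 469.6 and 384 CPM in ganglia, against 231, 321 and 262 CPM in spleen and was not called (log2 fold change 0.60 ± 0.25, adjusted p = 0.177). Of 9 tested members 2 were higher and 2 lower (median -0.10; 1 lower on raw counts), so the inhibitory and an activating receptor lay on opposite sides.

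Most MHC class II genes, which present antigen to CD4 T cells, were higher, but the calls depended on single libraries. Of 11 tested members 7 were higher, and none was lower by edgeR, DESeq2 or limma voom or at an unadjusted p under 0.05 (median 1.68). The count of higher members was 4 without spleen library 1 or spleen library 3, 2 without the library 3 of each group and 0 on raw counts. H2-Eb1 had 2872, 3348 and 2677 CPM in ganglia, against 351, 475 and 320.4 CPM in spleen (log2 fold change 2.96 ± 0.52, adjusted p = 0.00102). H2-Ab1 had 4461, 4740.5 and 5374 CPM in ganglia, against 729, 1195 and 761 CPM in spleen (log2 fold change 2.44 ± 0.52, adjusted p = 0.00511; adjusted p = 0.0724 without the library 3 of each group). Cd74, the invariant chain, had 6119.9, 5656 and 8026 CPM in ganglia, against 1573, 2616 and 1789 CPM in spleen (log2 fold change 1.73 ± 0.50, adjusted p = 0.0386), a call lost without any 1 library (adjusted p = 0.0638 to 0.158). All 3 had no overlap between the groups.

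Of 17 tested Toll-like receptor genes 2 were higher and 1 lower (median -0.13), which is 17.6% called beside 9.56% of all tested genes, and none was called on raw counts. Tlr2, the receptor of bacterial lipoproteins, had 323, 294 and 273 CPM in ganglia, against 70.9, 74.7 and 52.8 CPM in spleen (log2 fold change 2.16 ± 0.30, adjusted p = 1.06e-04). Tlr5, the flagellin receptor, averaged 11 ± 7.02 CPM in ganglia and 0.623 ± 0.464 CPM in spleen (log2 fold change 4.14 ± 0.82, adjusted p = 0.00276). The lower member was Tlr4, the endotoxin receptor (log2 fold change -1.21 ± 0.33, adjusted p = 0.0273), whose call was lost without ganglia library 2 or 3 or spleen library 1 or 2 (adjusted p = 0.0758 to 0.122). Tlr7 had 109, 132 and 69.6 CPM in ganglia, against 111, 95 and 54.8 CPM in spleen, with overlap (log2 fold change 0.25 ± 0.42, adjusted p = 0.869).

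Adhesion genes were divided, with 4 higher and 5 lower of 18 tested integrins and ligands (median 0.03), or none higher and 2 lower on raw counts. Itga6, a laminin receptor chain, had 106, 114 and 85.1 CPM in ganglia, against 1.16, 1.42 and 2.59 CPM in spleen (log2 fold change 5.91 ± 0.40, adjusted p = 8.26e-08). Itga9, a chain that binds VCAM1 and tenascin, had 14.3, 24.2 and 15.6 CPM in ganglia, against 296, 238 and 193 CPM in spleen (log2 fold change -3.74 ± 0.35, adjusted p = 5.42e-06). Itgb2, the beta chain shared by CD11b and CD11d, had 169, 199 and 205 CPM in ganglia, against 533, 577 and 499 CPM in spleen (log2 fold change -1.49 ± 0.24, adjusted p = 5.32e-04). The CD11b chain was higher, and the CD11d chain (Itgad) and their shared beta chain lower, in each ganglia library.

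Bridging and uptake genes for dying cells moved in both directions. Of 14 tested members 5 were higher and 4 lower, with a median of 1.43, or 1.15 with Megf10, listed at 0 in spleen, set to 3 counts a library; on raw counts 2 were higher and none lower. Gas6 and Pros1, secreted bridges to the TAM receptors, averaged 102 ± 8.85 CPM in ganglia and 8.1 ± 1.99 CPM in spleen for Gas6 (log2 fold change 3.65 ± 0.38, adjusted p = 6.00e-06) and 73.8 ± 9.6 CPM in ganglia and 4.1 ± 1.94 CPM in spleen for Pros1 (log2 fold change 4.15 ± 0.34, adjusted p = 4.80e-07). Mfge8, a secreted bridge to integrins, averaged 20.9 ± 8.72 CPM in ganglia and 0.411 ± 0.512 CPM in spleen (log2 fold change 5.56 ± 0.70, adjusted p = 4.64e-05). Receptors lay on both sides, with Cd36 and Stab1 higher and Stab2 lower, as given above.

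Lipid genes moved in both directions, with 4 higher and 7 lower of 19 tested members (median -0.60), or 1 higher and 2 lower on raw counts. Abcg1, a cholesterol exporter and target of LXR, had 30.5, 28.7 and 18.3 CPM in ganglia, against 276, 224 and 215 CPM in spleen (log2 fold change -3.21 ± 0.40, adjusted p = 4.35e-05). Scarb1, the HDL receptor, had 20.8, 20.9 and 18.9 CPM in ganglia, against 122, 175 and 109 CPM in spleen (log2 fold change -2.74 ± 0.36, adjusted p = 5.98e-05), and Lipa, lysosomal acid lipase, had 146, 126 and 116 CPM in ganglia, against 581, 479.7 and 383 CPM in spleen (log2 fold change -1.90 ± 0.29, adjusted p = 3.01e-04). With Nr1h3 these were lower in every ganglia library, while Apoe and Cd36 were higher.

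Purine receptor genes gave 4 higher and 2 lower of 14 tested members (median 1.26), or 1 higher and none lower on raw counts. P2ry6, the UDP receptor of phagocytes, had 192, 261 and 236 CPM in ganglia, against 0.915, 1.97 and 0.456 CPM in spleen (log2 fold change 7.63 ± 0.50, adjusted p = 6.80e-08). Adora2a and Adora3 are adenosine receptor genes with 0 counts in every spleen library after rounding. Their calls rested on ganglia levels of 4.62, 0.398 and 0.802 CPM for Adora2a and 2.08, 2.66 and 0 CPM for Adora3. Their raw counts were 29, 39 and 154 in ganglia, against 8, 54 and 141 in spleen for Adora2a and 13, 56 and 47 in ganglia, against 9, 17 and 41 in spleen for Adora3, and neither passed on them (adjusted p = 1 for Adora2a and 0.806 for Adora3). Adora3 overlapped between the groups, and its call was lost without ganglia library 2 (adjusted p = 0.0698). The 2 lower members were P2rx4 and Ada, of which none was called without ganglia library 1 or 2 or any 1 spleen library (adjusted p = 0.0539 to 0.165), and Ada was not called without ganglia library 3 (adjusted p = 0.133).

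Of 23 tested lysosomal enzyme genes 3 were higher and 2 lower (median -0.08), which is 21.7% called beside 9.56% of all tested genes. Without the library 3 of each group 1 was higher and 1 lower, and on raw counts none was called. Ctsb, cathepsin B, had 1481, 1514 and 1874 CPM in ganglia, against 5449, 6069 and 5008 CPM in spleen (log2 fold change -1.76 ± 0.24, adjusted p = 9.98e-05). Ctss, cathepsin S, had 1766, 1524 and 1620.1 CPM in ganglia, against 1149.9, 840.3 and 783 CPM in spleen; its adjusted p was 0.0336, but its log2 fold change of 0.82 ± 0.23 was under the threshold. Ctsd was lower (log2 fold change -1.46 ± 0.40, adjusted p = 0.027), a call lost without any 1 ganglia library or without spleen library 2 or 3 (adjusted p = 0.055 to 0.117). Gusb, beta-glucuronidase, was higher (log2 fold change 1.28 ± 0.27, adjusted p = 0.00406), a call lost without the library 3 of each group (adjusted p = 0.107).

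Matrix proteases and their inhibitors were higher where they were called, with 5 of 15 tested members (median 1.10), or 3 on raw counts. Mmp14, the membrane protease that activates MMP2, had 56.6, 45.7 and 99.3 CPM in ganglia, against 1.33, 1.64 and 2.13 CPM in spleen (log2 fold change 5.31 ± 0.46, adjusted p = 9.58e-07), and Mmp2 had 15.7, 17.7 and 18.1 CPM in ganglia, against 2.25, 1.86 and 1.83 CPM in spleen (log2 fold change 3.10 ± 0.50, adjusted p = 5.13e-04). Adam15 had 63.3, 116 and 70.8 CPM in ganglia, against 0.748, 0.328 and 0.913 CPM in spleen (log2 fold change 6.96 ± 0.56, adjusted p = 4.46e-07). Timp2, an inhibitor, was not called, with 315, 385 and 256 CPM in ganglia, against 231, 237 and 228 CPM in spleen (log2 fold change 0.46 ± 0.28, adjusted p = 0.449). Of 13 tested growth factor genes 2 were higher, Osm and Bmp2, and 1 was lower (1 higher and none lower on raw counts). The share called was 23.1%, beside 9.56% of all tested genes. Bmp2 had 62.1, 10.6 and 10.6 CPM in ganglia, against 3.83, 1.97 and 0.761 CPM in spleen (log2 fold change 3.59 ± 0.74, adjusted p = 0.00373). The lower gene, Hbegf (log2 fold change -2.08 ± 0.54, adjusted p = 0.0185), was not called without ganglia library 2 or 3 or spleen library 1 or 3 (adjusted p = 0.0674 to 0.0721).

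**Figure D4:**
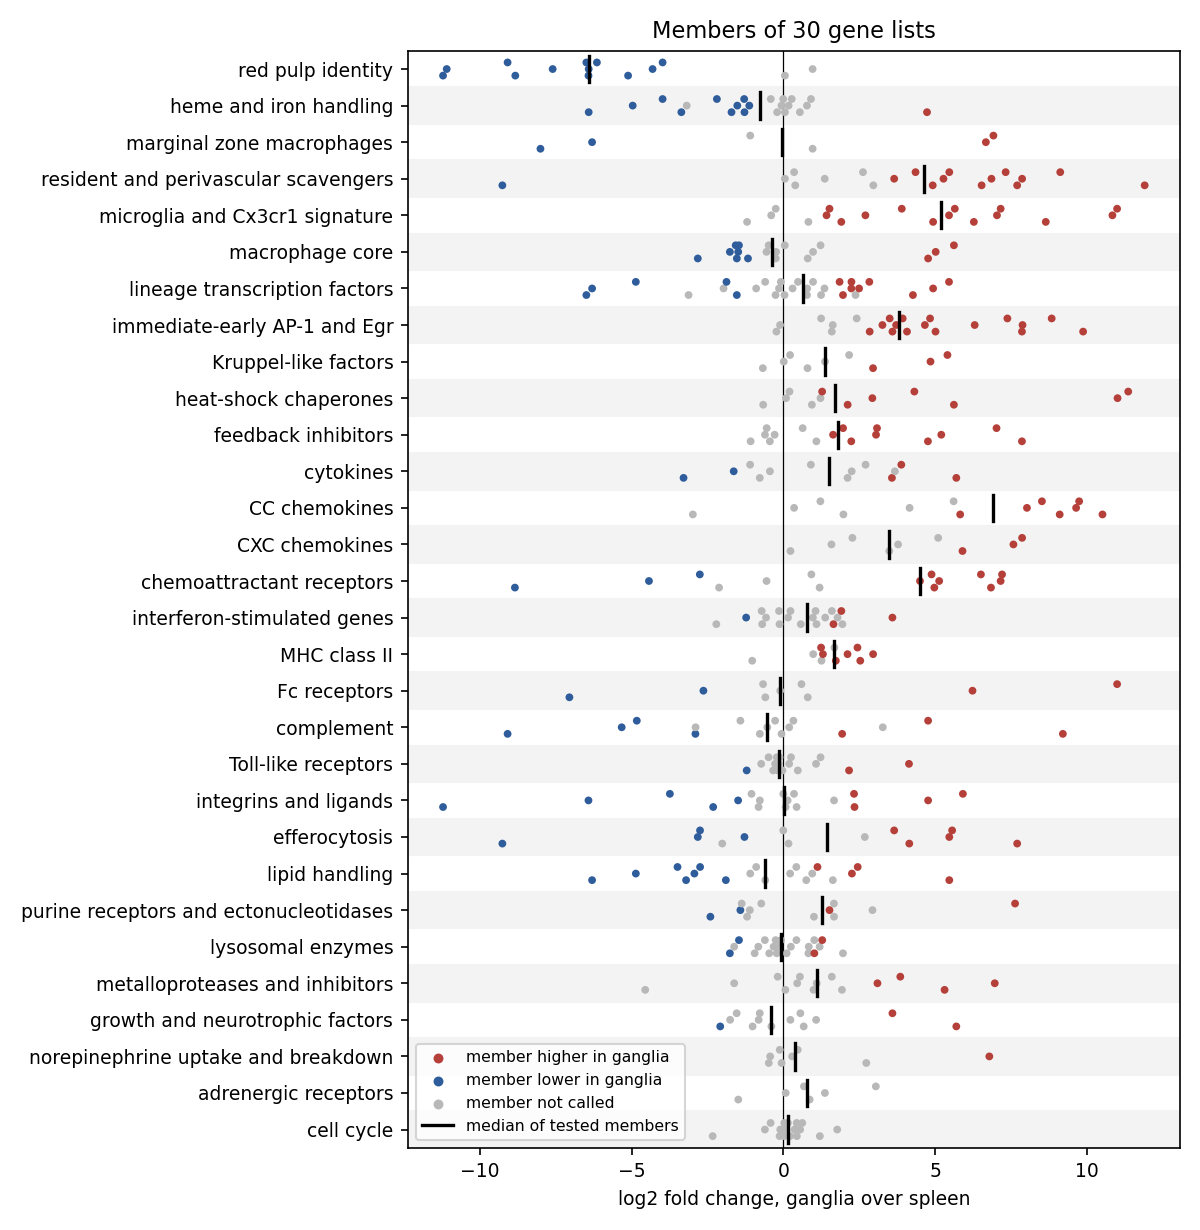
Log2 fold changes (ganglia over spleen) of the tested members of 30 gene lists, without members at 0 throughout 1 group; red members are higher in ganglia, blue members lower, grey members not called, and a black bar marks the median of all tested members. Red pulp genes lie mostly left of 0, while immediate-early, CC chemokine, scavenger and microglial signature genes lie mostly right of it, and cell cycle genes cluster near 0.

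Uptake and breakdown of norepinephrine are the subject of the series title. Of 10 tested genes of these steps 2 were higher (median 0.38), beside 9.56% of all tested genes called in either direction. None was lower by edgeR, DESeq2 or limma voom or at an unadjusted p under 0.05, and on raw counts none was called. Maoa, the mitochondrial monoamine oxidase A (chromosome X, 16619698 to 16687812), had 14.5, 20.3 and 8.43 CPM in ganglia, against 0.0832, 0 and 0.304 CPM in spleen, 142-fold (95% counting interval 47.9 to 691) higher in ganglia on 3 spleen counts (adjusted p = 6.16e-04). Its raw gene-body counts were 164, 322 and 328 in ganglia, against 8, 54 and 161 in spleen (raw log2 fold change 2.91, adjusted p = 0.0978). Slc6a2, the norepinephrine transporter, which is named outside the rule because the title turns on it, had 11.3, 3.32 and 2.01 CPM in ganglia, against 0.0832, 0.766 and 1.67 CPM in spleen and was not called (log2 fold change 2.73 ± 1.38, adjusted p = 0.309). Ganglia library 1 was the highest of the 6 for Slc6a2.

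The second called gene, Aldh1a1, an aldehyde dehydrogenase, had 0.231, 2.13 and 0.602 CPM in ganglia and was listed at 0 in all spleen libraries, with raw counts of 7, 62 and 283 in ganglia, against 4, 81 and 163 in spleen (raw log2 fold change 0.57, adjusted p = 1). Its call was lost without ganglia library 2 or any 1 spleen library (adjusted p = 0.0837 to 0.116). None of 6 tested adrenergic receptor genes was called by edgeR, beside 9.56% of all tested genes. However, 2 higher and 1 lower had an unadjusted p under 0.05, and DESeq2 and limma voom each called 2 higher and 1 lower. Adrb1, a beta receptor gene, had 43.9, 31.2 and 39.3 CPM in ganglia, against 109, 109 and 103 CPM in spleen (log2 fold change -1.49 ± 0.46, adjusted p = 0.0534; 95% interval -2.39 to -0.58). Its interval excludes 0, but the adjusted p missed the threshold.

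None of 17 tested cell cycle genes was called by edgeR in either direction (median 0.15), beside 9.56% of all tested genes. None had an unadjusted p under 0.05, and DESeq2 called 0 and limma voom 1 lower. Summed levels were 109 to 129 CPM in ganglia and 90.6 to 125 CPM in spleen. Mki67, the proliferation antigen, had 11.3, 4.38 and 13.8 CPM in ganglia, against 9.48, 7.22 and 12 CPM in spleen (log2 fold change 0.03 ± 0.74, adjusted p = 0.996; 95% interval -1.41 to 1.47). The groups overlapped for it.

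Markers of other cells that ganglia contain moved with the comparison. Of 19 tested sympathetic neuron genes 13 were higher in ganglia and none lower by edgeR, DESeq2 or limma voom or at an unadjusted p under 0.05, with a median of 4.93, or 4.54 with Stmn3, listed at 0 in spleen, set to 3 counts a library; the count was 12 or 13 without any 1 library, and 1 passed on raw gene-body counts. Summed levels of the list were 173 to 234 CPM in ganglia and 7.85 to 9.23 CPM in spleen. Npy, neuropeptide Y, had 20.8, 27.1 and 31.9 CPM in ganglia, against 0.915, 0.656 and 0.913 CPM in spleen (log2 fold change 4.98 ± 0.48, adjusted p = 2.61e-06), and Stmn2, a growth-cone protein gene, had 50.1, 26.4 and 29.7 CPM in ganglia, against 0.998, 1.75 and 2.89 CPM in spleen (log2 fold change 4.27 ± 0.60, adjusted p = 1.46e-04). Th and Dbh, the enzymes of norepinephrine synthesis that define these neurons and are named outside the rule, had 6.0, 2.39 and 9.83 CPM (Th) and 18.9, 9.56 and 14.2 CPM (Dbh) in ganglia, against 0.0832, 0 and 0 CPM (Th) and 0.333, 0 and 0 CPM (Dbh) in spleen. Neuronal transcripts were thus present in each ganglia library.

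Schwann cell and satellite glia genes gave 7 higher of 12 tested members (median 3.76), 4 without spleen library 1 and 1 on raw counts, with summed levels of 214 to 377 CPM in ganglia and 6.2 to 13.3 CPM in spleen. Pmp22, a peripheral myelin gene, had 156, 145 and 159 CPM in ganglia, against 1.41, 1.97 and 5.02 CPM in spleen (log2 fold change 5.82 ± 0.49, adjusted p = 6.24e-07), but it also averaged 319 ± 18.5 CPM in microglia. Summed levels of the whole list were 346 to 397 CPM in microglia and 735 to 742 CPM in fibers. They were 112 to 128 CPM in subcutaneous fat and 182 to 212 CPM in visceral fat. Mbp, myelin basic protein, had 9.0, 133 and 41.1 CPM in ganglia, against 0, 2.95 and 0.456 CPM in spleen (log2 fold change 5.75 ± 1.03, adjusted p = 0.00118). Fibroblast genes gave 4 higher of 10 (median 2.88, or 1.94 with Col1a1 and Lum, listed at 0 in spleen, set to 3 counts a library) and none on raw counts, with summed levels of 43.3 to 56 CPM in ganglia and 5.23 to 7.8 CPM in spleen; Dcn, decorin, had 26.1, 30.5 and 21.9 CPM in ganglia, against 0, 0.328 and 0.913 CPM in spleen (log2 fold change 6.14 ± 0.92, adjusted p = 2.66e-04). The part of neuronal, glial and fibroblast RNA in other genes' differences was not tested.

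Monocyte genes were higher for 5 of 10 tested members (median 2.37), and for 3 without spleen library 2, spleen library 3 or the library 3 of each group and on raw counts. Summed levels were 1002 to 1575 CPM in ganglia and 34 to 59.1 CPM in spleen. Ccr2, the receptor that brings monocytes into tissue, had 818, 509 and 476 CPM in ganglia, against 8.32, 1.2 and 2.28 CPM in spleen (log2 fold change 7.20 ± 0.84, adjusted p = 1.90e-05). Ms4a4c had 36.5, 29.6 and 56.8 CPM in ganglia, against 2.91, 2.3 and 1.83 CPM in spleen (log2 fold change 4.10 ± 0.63, adjusted p = 3.16e-04). Ly6c2, the defining gene of classical monocytes, had 5.31, 20.5 and 37.1 CPM in ganglia, against 4.07, 2.63 and 3.35 CPM in spleen (log2 fold change 2.64 ± 0.64, adjusted p = 0.013), a call lost without ganglia library 3 or spleen library 2 or 3 (adjusted p = 0.0519 to 0.0789). Plac8 was higher too, a call lost without any 1 library other than ganglia library 3 (adjusted p = 0.0758 to 0.246). Most of the summed monocyte level in ganglia came from Ccr2 and F13a1, which resident macrophages can also express. The part of monocytes in the results was not tested. Dendritic cell genes gave 3 higher of 11 (median 1.78; 1 lower on raw counts), of which Siglech and Cd209a stand in the lists above and Kmo averaged 8.12 ± 5.2 CPM in ganglia and 0.745 ± 0.43 CPM in spleen (log2 fold change 3.37 ± 0.70, adjusted p = 0.00403). The dendritic cell share called was 27.3%, beside 9.56% of all tested genes.

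Markers of lymphocytes, which spleen holds in large numbers, were summed by cell type. B cell genes summed to 48.6 to 61.1 CPM in ganglia and 104 to 140.4 CPM in spleen, T cell genes to 12.2 to 19.1 CPM in ganglia and 22 to 35.5 CPM in spleen, NK cell genes to 1.37 to 6.2 CPM in ganglia and 14.5 to 20.7 CPM in spleen and plasma cell genes to 79.1 to 149 CPM in ganglia and 157 to 238 CPM in spleen. Of these 28 tested genes 3 were lower (Cd79b, Klrk1 and Jchain) and 2 higher (Il7r and Tnfrsf17), which is 17.9% called beside 9.56% of all tested genes, and none was called on raw counts. Lower in ganglia with no overlap were 7 of 9 B cell genes, 4 of 8 T cell genes, 2 of 4 NK cell genes and 3 of 7 plasma cell genes, beside 15.2% of all tested genes. Jchain had 0, 0 and 0.401 CPM in ganglia, against 47.1, 5.58 and 14.2 CPM in spleen, 216-fold (95% counting interval 59.5 to 1790) higher in spleen on 2 ganglia counts (adjusted p = 0.00726), and its call was lost without spleen library 1 (adjusted p = 0.124). The call of Cd79b was lost without any 1 library other than spleen library 1 and that of Klrk1 without any 1 other than ganglia library 3 (adjusted p = 0.0543 to 0.132), and that of Il7r without spleen library 3 (adjusted p = 0.0528). The part of these cells in the results was not tested.

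Neutrophil genes gave 0 calls among 9 by edgeR, DESeq2 and limma voom, none at an unadjusted p under 0.05, and 1 higher without spleen library 2. Mast cell and eosinophil genes gave 0 among 3 by edgeR, with 1 lower at an unadjusted p under 0.05 and by DESeq2. Over all tested genes the share called by edgeR was 9.56%. Endothelial genes summed to 3.43 to 25.8 CPM in ganglia and 248 to 344 CPM in spleen, with 2 lower of 8 tested members (1 on raw counts) and a median of 2.02. The lower members were Stab2 and Pecam1, which had 0, 0.797 and 0.201 CPM in ganglia, against 61, 65.3 and 44.7 CPM in spleen (log2 fold change -7.13 ± 1.01, adjusted p = 1.44e-04) and is also expressed by leukocytes. Without these 2 genes, left out after their values were seen, the sums were 3.43, 19.9 and 24.4 CPM in ganglia, against 0.86, 1.45 and 7.88 CPM in spleen. None of the 8 was higher by edgeR, with 1 higher at an unadjusted p under 0.05 and by DESeq2 and 2 by limma voom. Erythroid genes summed to 656 to 898 CPM in ganglia and 267 to 709.6 CPM in spleen, with 2 higher and 1 lower of 8, none of them called on raw counts. The globin genes Hba-a1 and Hba-a2, near-identical copies that cannot be told apart with certainty, averaged 222 ± 21.1 CPM in ganglia and 67 ± 39.8 CPM in spleen for Hba-a1 (log2 fold change 1.73 ± 0.49, adjusted p = 0.0317). Their calls were lost without any 1 library other than spleen library 3 (adjusted p = 0.0631 to 0.156). Epor, the erythropoietin receptor gene, had 1.39, 15.5 and 12.4 CPM in ganglia, against 39.4, 59.6 and 55.7 CPM in spleen (log2 fold change -2.38 ± 0.57, adjusted p = 0.0114), a call lost without the library 3 of each group (adjusted p = 0.0771). Platelet genes gave 1 higher (Gp1bb) and 1 lower of 7 (Vwf, lost without any 1 library other than ganglia library 2, adjusted p = 0.0566 to 0.0925), none called on raw counts, with summed levels of 5.08 to 17.2 CPM in ganglia and 21.7 to 31.9 CPM in spleen. The platelet share called was 28.6%, beside 9.56% of all tested genes.

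The other 4 sources place these differences. For genes lower in ganglia, spleen alone was the highest of the 6 sources by mean level in 490 of 550 (89.1%), beside 15.7% of all tested genes, and ganglia alone were the lowest in 81 (14.7%), beside 7.36%. For genes higher in ganglia, spleen alone was the lowest of the 6 in 644 of 911 (70.7%), beside 13.8% of all tested genes, and ganglia alone were the highest in 183 (20.1%), beside 7.97%. Spleen is part of both the calls and the ranks, so these shares describe where the other sources lie and carry no test. Levels of the higher genes lay nearer to ganglia than to spleen in fibers for 82.2%, in visceral fat for 72.1%, in subcutaneous fat for 66.6% and in microglia for 58.1%, beside 64.1%, 51.5%, 51.6% and 53.8% of all tested genes.

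Single genes show the kinds of pattern behind these shares. Hspa1a averaged 2552 ± 1150.3 CPM in fibers, 1724 ± 106 CPM in subcutaneous fat, 1705 ± 96.5 CPM in visceral fat and 20.3 ± 6.7 CPM in microglia, so microglia lay far below the other 3. Pmepa1 averaged 500.1 ± 84.8 CPM in microglia, 38.6 ± 13.1 CPM in fibers, 11.7 ± 10.1 CPM in subcutaneous fat and 8.28 ± 2.68 CPM in visceral fat, so the mean in ganglia lay nearest to brain. Mgl2 averaged 2.08 ± 3.6 CPM in microglia, 362 ± 82.1 CPM in fibers, 246 ± 156 CPM in subcutaneous fat and 478 ± 68.3 CPM in visceral fat, so the mean in ganglia lay nearest to nerve and fat. Fcna averaged 135 ± 15.5 CPM in visceral fat, the only source outside spleen where it exceeded 20 CPM.

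**Figure D5:**
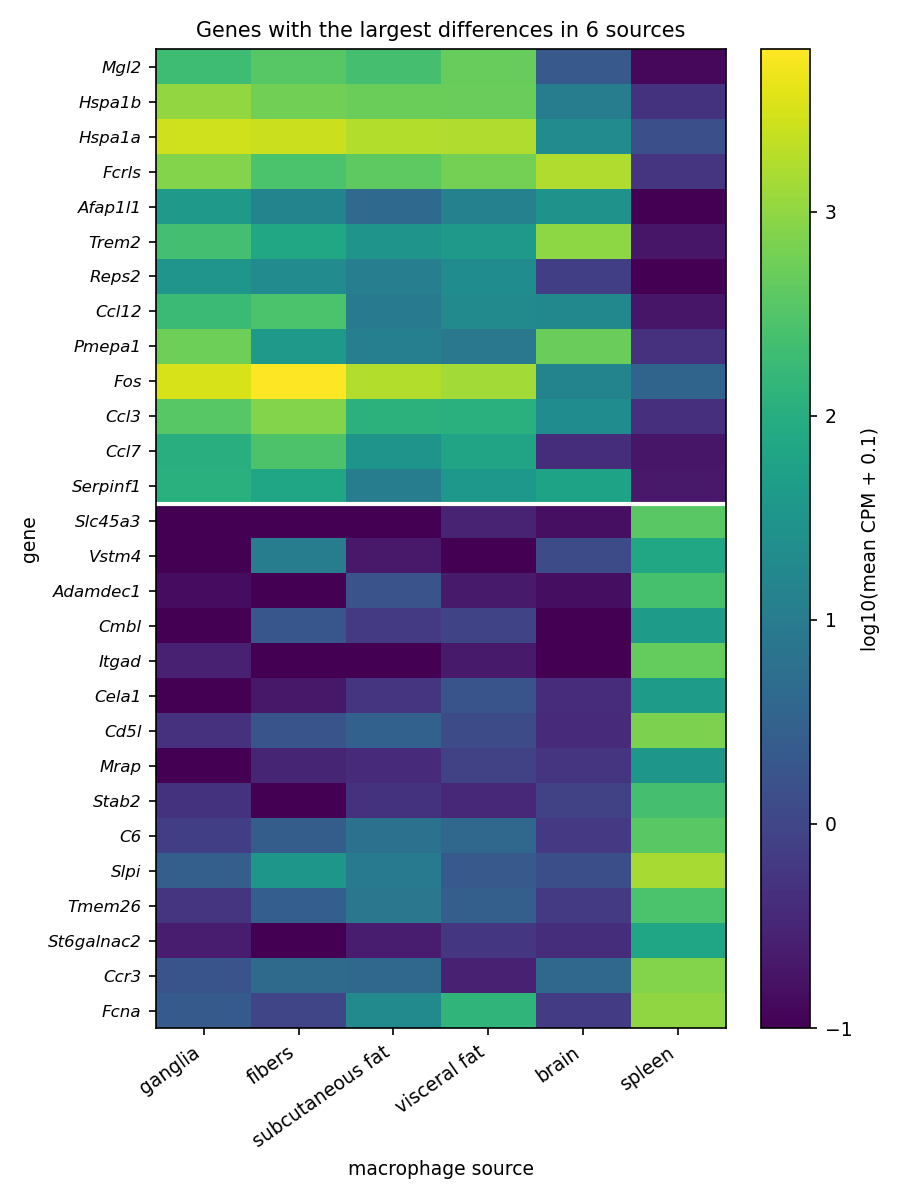
Mean levels (log10 of CPM + 0.1, color scale) of 13 higher and 15 lower genes with the widest gaps by the naming rule, in macrophages of ganglia, fibers, subcutaneous fat, visceral fat, brain and spleen; a white line parts higher genes (above) from lower genes (below). Lower genes are brightest in the spleen column, with Fcna next in visceral fat, whereas higher genes are dark in spleen and bright in several other columns.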

How the data were processed

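RNA of sorted macrophages was sequenced from low input, and 3 libraries of ganglia (SAM_ganglia) were compared with 3 of spleen (SpM), grouped by their titles. The deposited tables were made with STAR, HOMER and the mm10 build, per the submitters' processing notes; neither versions nor the strand setting are stated in the labels. The authors deposited estimated counts corrected for DNA contamination as the main table, and these were rounded to whole numbers. The authors also deposited raw counts over gene bodies, and RPKM values, which were used as alternatives on the log2(RPKM + 0.1) scale with limma 3.58.1.

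Genes were kept with edgeR's filterByExpr (minimum count 10), scaled by TMM and tested in edgeR 4.0.16 (R 4.3.3), with 1 mean per source over all 15 libraries, which share one estimate of the spread. The common coefficient of biological variation was 0.680. Calls required an adjusted p below 0.05 and a log2 fold change of at least 1; the SE is the fold change divided by the square root of F. On simulated counts of this comparison (13046 genes) 1.5% of genes changed by a log2 fold of 1, 31.3% of those changed by 2 and 61.2% of those changed by 3 were called. Depths were 4.09 to 11.4 M corrected counts. Nothing says that libraries came from separate animals, and counts of every pair of libraries of a group differed beyond sampling noise.

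Named are the 4 check markers, the sort markers, the 15 calls per direction ranked highest by size of the fold (group mean of at least 30 CPM, no overlap, predicted and small RNA genes left out), and up to 6 members of each list, called members first; exceptions are marked, and some genes are not reported here; the members and the 44 lists were chosen with earlier results of these data known. Promoter windows (250 bases before to 50 after the start) come from RefSeq, GRCm38.p6, and matched 11669 of 15289 tested genes. Alternatives were other scalings, filters, tools and tables (DESeq2 1.42.0, limma voom), each library left out, and a replicate block.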

Additional observations from a re-analysis of the deposited data

How the results depend on the processing

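Against 911 higher and 550 lower genes, limma voom called 1447 higher and 1120 lower, raw gene-body counts 140 and 114, and log2(RPKM + 0.1) without a filter 605 higher. Fitting only the 6 libraries gave 844 lower, log2(RPKM + 1) 913 lower, and a log2 fold change threshold of 2 gave 350 lower. Leaving out 1 library gave 700 to 849 higher and 386 to 451 lower. Without the library 3 of each group, an alternative chosen after seeing the data, 322 were lower. The other settings tried for these counts stayed within 1.5 times. The cause of the shifts was not tested, and settings that left out libraries also had fewer samples. The alternatives gave 5263 values of 253 genes chosen by the naming rule. Of these, 4865 stayed on the same side of the threshold, 314 lost the call and 83 gained it. Direction was compared only where the main or the alternative fit made a call. There 1 value reversed, that of Hsp90aa1, at 4.92 on raw counts, where the cause was not tested. Same-numbered libraries of the groups had correlated deviations of 0.415, 0.0849 and 0.423 for numbers 1, 2 and 3. Ganglia library 2 correlated slightly better with spleen library 1 (0.139). All other pairs with unlike numbers were negative (-0.454 to -0.0152). Deviations were taken from each group's own mean, which pushes unlike pairs below 0 where same-numbered pairs lie above it. The negative values are therefore no separate evidence. The numbers were not taken as pairs in the main fit, although structure shared by number was not excluded. A fit with the replicate block called 904 higher and 558 lower. Depth limits levels below 0.249 to 0.693 CPM in a library.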
